A study of Drosophila mojavensis with 97 samples.

Results

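nimB5 and nimC3 are Nimrod genes, and they are described here in adult females of the cactophilic fly Drosophila mojavensis from 4 desert populations. The 2 were chosen by name, as the transcripts FBtr0163405 (GI12680, the ortholog of D. melanogaster nimB5) and FBtr0168116 (GI17391, the ortholog of nimC3), among 14528 transcripts on the array. Of the wild-type stocks, those of Baja California were from San Quintin (SQ) and Punta Prieta (PP), while Punta Onah (PO) and Organ Pipe National Monument (OPNM) lie on the mainland side. Larvae of each population were reared on fermenting tissue of agria (AG) or organ pipe (OP) cactus that had been inoculated with a cactus-rot bacterium and a set of cactus yeasts, and the adults were kept on banana food. Groups of 30 females aged 7 days were then held for 12 hr at 15, 25 or 35 °C and frozen for RNA. These 4 populations, 2 cacti and 3 temperatures made 24 groups. There were 4 arrays in 23 of them and 5 in PP flies reared on agria and held at 35 °C, or 97 arrays in all. The OPNM stock was founded from pooled isofemale lines and the other stocks from flies collected in the field, so each population is represented by 1 laboratory stock.

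Nimrod proteins carry EGF-like repeats known as NIM repeats and are best known from the blood cells and fat body of D. melanogaster. NimC-type members of that species include membrane receptors of blood cells, such as NimC1, that take part in the uptake of bacteria. NimB-type members are secreted, and NimB5 of D. melanogaster is made in the fat body and restrains the number of blood cells in larvae. No such role has been taken for granted in D. mojavensis, and the array measured RNA of whole females, in which fewer cells of a type and less RNA per cell cannot be told apart. None of the 8 listed blood cell markers and none of the 10 fat body markers could be paired with a transcript, so the level of either tissue is not given.

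Each value is a log2 intensity that summarises 9 probes per transcript, and values are compared for 1 gene across arrays, not between the genes. Both genes lay among the dimmest 25% of transcripts. Their means over the 97 arrays were 7.19 for nimB5 and 8.13 for nimC3, with 6.75% and 19.9% of all transcripts dimmer than each, while array medians lay between 9.81 and 10.1. The interquartile range of an array, over all its transcripts, ran from 2.51 to 3.42. No 2 arrays held identical values. In OPNM flies on organ pipe at 35 °C, 2 arrays carry replicate number 3 and none carries number 2. These 2 may be of 1 sample, since they correlated at r = 0.992, against a median of 0.985 within groups and 0.996 for the most alike arrays, and they were counted separately.

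nimB5 was highest in SQ and PO flies and lower in PP and OPNM flies, so that each side of the Gulf of California held 1 population with a higher and 1 with a lower level. On agria, the SQ arrays read 7.93, 8.06, 8.44 and 8.47 at 15 °C, 7.23, 7.57, 7.65 and 7.76 at 25 °C, and 6.77, 7.36, 7.75 and 8.08 at 35 °C. On organ pipe, they read 7.14, 7.27, 7.36 and 7.39 at 15 °C, 6.79, 7.08, 7.54 and 8.21 at 25 °C, and 6.49, 6.56, 6.78 and 8.18 at 35 °C. At 15 °C the arrays of agria-reared SQ flies all lay above those of SQ flies reared on organ pipe, while at 25 and 35 °C the 2 sets overlapped.

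In PP flies reared on agria, nimB5 read 6.48, 6.69, 7.04 and 8.18 at 15 °C, 7.20, 7.34, 7.52 and 7.54 at 25 °C, and 6.53, 7.04, 7.08, 7.28 and 7.45 at 35 °C. In PP flies reared on organ pipe, it read 6.48, 6.65, 6.78 and 6.86 at 15 °C, 6.60, 6.73, 6.84 and 7.17 at 25 °C, and 5.61, 6.65, 7.05 and 7.16 at 35 °C. All 4 agria arrays lay above all 4 organ pipe arrays at 25 °C, and the sets overlapped at the other temperatures. Single arrays stood well apart in this population, at 8.18 and 5.61.

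OPNM flies reared on agria had nimB5 values of 6.72, 7.24, 7.27 and 7.29 at 15 °C, 6.58, 6.95, 6.98 and 7.32 at 25 °C, and 6.75, 7.41, 7.50 and 7.75 at 35 °C. Those reared on organ pipe had 6.30, 6.56, 6.99 and 7.04 at 15 °C, 5.96, 5.98, 6.57 and 6.78 at 25 °C, and 6.33, 6.86, 7.004 and 7.01 at 35 °C. The organ pipe group at 25 °C had the lowest mean of the 24, at 6.32 ± 0.42 (SD, n = 4).

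PO flies reared on agria read 6.97, 7.48, 7.70 and 8.09 at 15 °C, 6.81, 7.86, 7.87 and 7.90 at 25 °C, and 6.48, 7.55, 7.64 and 7.85 at 35 °C for nimB5. PO flies reared on organ pipe read 7.48, 7.73, 7.80 and 8.44 at 15 °C, 6.87, 7.20, 7.60 and 7.92 at 25 °C, and 6.60, 6.77, 7.02 and 7.05 at 35 °C. On organ pipe the arrays at 35 °C all lay below those at 15 °C. Set against OPNM flies on the same cactus at 15 °C, whose highest array read 7.04, the 4 PO arrays began at 7.48 and did not overlap.

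**Figure D1:**
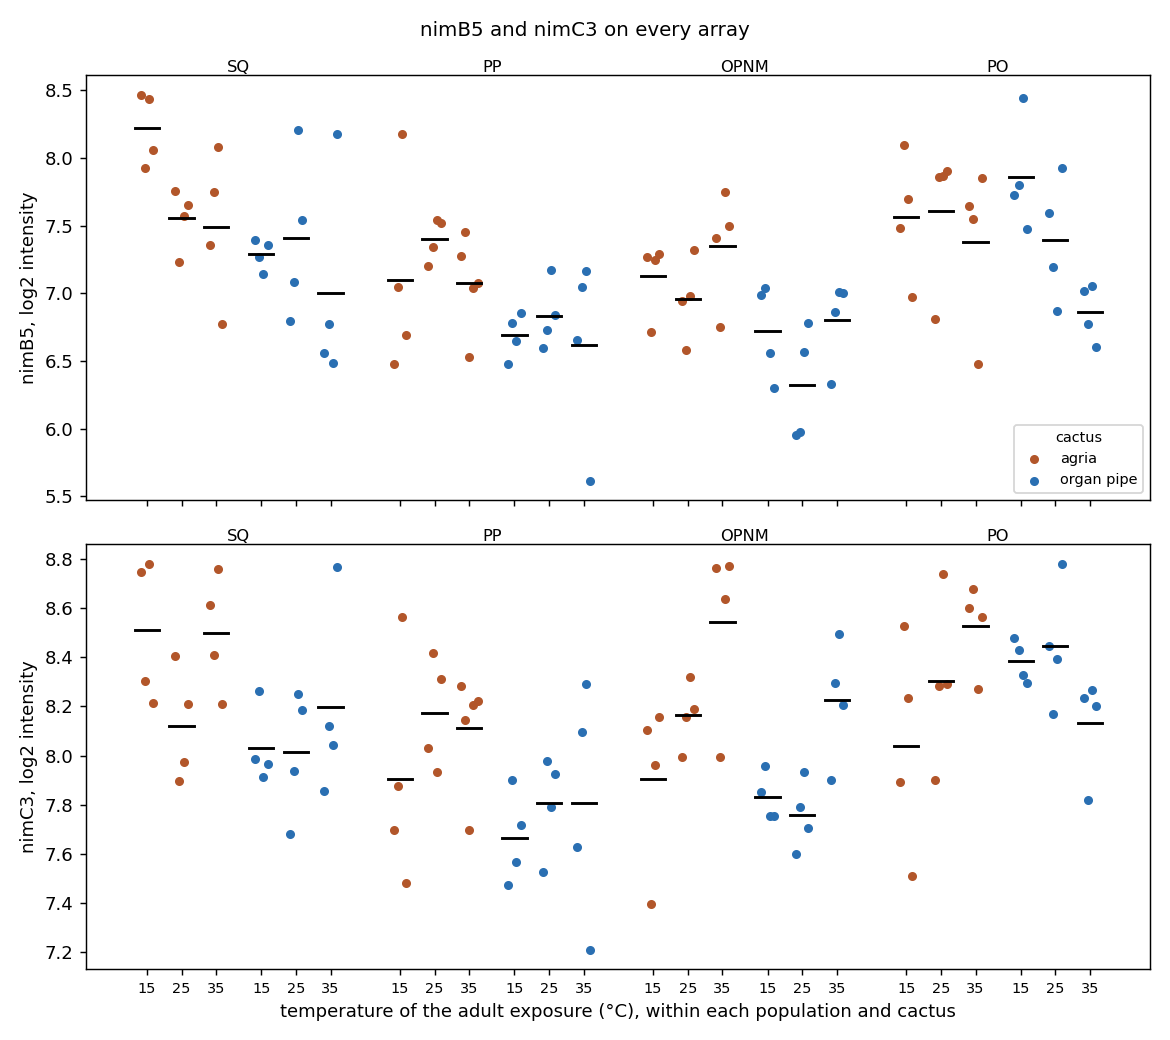
Log2 intensity of nimB5 (upper panel) and nimC3 (lower panel) on each of the 97 arrays, by population, cactus (colour) and exposure temperature in °C (horizontal axis); each point is 1 array and each bar is a group mean. For nimB5 the group means run between 6.32 in OPNM flies on organ pipe at 25 °C and 8.22 in SQ flies on agria at 15 °C, and for nimC3 between 7.67 and 8.54.

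The equally weighted population means of nimB5 were 7.49 in SQ, 6.95 in PP, 6.88 in OPNM and 7.45 in PO. The study singled out both genes on these arrays for the difference between SQ and PP, which is therefore a description here and carries no test. Over SQ arrays nimB5 ran from 6.48 through a median of 7.47 to 8.47 (n = 24), and over PP arrays from 5.61 through 7.04 to 8.18 (n = 25). The SQ mean exceeded the PP mean by 0.54 (SE 0.125, 1.46-fold) and did so in each of the 6 cactus and temperature combinations. That comparison called 1.09% of transcripts. The difference was 0.86 at 15 °C, 0.36 at 25 °C and 0.40 at 35 °C.

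The 2 mainland populations share no arrays with that difference, and they too stood apart. On these same mainland arrays, however, the study had reported genes with EGF-like regions as enriched among those higher in PO than in OPNM. The comparison is thus not independent of the study's own results. nimB5 was lower in OPNM than in PO, at 0.676 of the PO level. OPNM arrays ran from 5.96 through a median of 6.96 to 7.75 and PO arrays from 6.48 through 7.57 to 8.44 (n = 24 each), so the 2 sets overlapped while their means differed by -0.56 (SE 0.126, 95% interval -0.82 to -0.31, limma, adjusted p = 0.0013). OPNM was lower in 6 of 6 combinations. Of all transcripts, 3.90% passed in this comparison at an adjusted p under 0.01, the threshold used throughout. Arrays carry replicate numbers within a group, and the call was lost without the arrays numbered 1 (-0.56, adjusted p = 0.0228) or those numbered 2 (-0.45, adjusted p = 0.0816).

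The OPNM deficit in nimB5 was largest on organ pipe in the cool groups. On organ pipe it was -1.14 at 15 °C, -1.07 at 25 °C and -0.06 at 35 °C, and on agria -0.43, -0.65 and -0.03 at the same temperatures (SE 0.309 for each). Over both cacti, OPNM averaged 6.93 and PO 7.71 at 15 °C, a difference of -0.78 (adjusted p = 0.0139, 1.01% of transcripts called). At 25 °C the means were 6.64 in OPNM and 7.50 in PO, a difference of -0.86 (SE 0.22, adjusted p = 0.00551, 4.49% of transcripts called). The call at 25 °C was not rerun with replicate numbers left out. At 35 °C the means came together, at 7.08 in OPNM and 7.12 in PO, with a difference of -0.05 whose 95% interval ran from -0.48 to 0.39 (0.585% called). The test of whether differences between populations of a region varied with temperature did not pass for nimB5 (limma, adjusted p = 0.215). Only 0.0344% of transcripts passed that test.

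Comparisons across the Gulf share their SQ and PP arrays with the difference for which the genes were singled out. nimB5 was higher in SQ than in OPNM by 0.61 (adjusted p = 0.000402, higher in 6 of 6 combinations, 7.63% of transcripts called, lost without the arrays numbered 2 at an adjusted p of 0.0147) and lower in PP than in PO by 0.49 (adjusted p = 0.00582, 6 of 6, 7.61% called). The PP minus PO call was lost in 5 of 14 alternatives, at -0.45, -0.49 and -0.42 without the arrays numbered 1, 2 or 4 (adjusted p = 0.0856, 0.0518 and 0.0342), -0.50 with quantile normalization applied again (0.0139) and -0.42 without arrays of outlying interquartile range (0.0128). SQ minus PO was 0.05 (95% interval -0.20 to 0.30, 5.16% called) and PP minus OPNM was 0.07 (-0.18 to 0.32, 6.22% called). With a high and a low population on each side, Baja California averaged 7.22 and the mainland 7.16, and the regional difference of 0.06 (SE 0.09, 95% interval -0.12 to 0.24, adjusted p = 0.797) did not pass, in a comparison that called 9.68% of transcripts. The SE and interval reflect the spread between arrays within groups and not that between populations of a region, so they do not bound a difference between the regions at large.

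Larval rearing on agria went with more nimB5 RNA in the adult. Agria arrays ran from 6.48 through a median of 7.41 to 8.47 (n = 49) and organ pipe arrays from 5.61 through 6.93 to 8.44 (n = 48), so single arrays of the cacti overlapped widely. The equally weighted means were 7.40 on agria and 6.98 on organ pipe, a difference of 0.42 (SE 0.09, 95% interval 0.24 to 0.60, 1.34-fold, adjusted p = 0.000634). The gene was higher on agria in 11 of 12 combinations of population and temperature, the exception being PO at 15 °C, where agria minus organ pipe was -0.30. The cactus comparison called 17.0% of all transcripts, 2109 of them higher on agria and 355 lower, so nimB5 moved in the direction of most called transcripts. The nimB5 call was lost without the arrays numbered 1 (0.39, adjusted p = 0.0248) or those numbered 2 (adjusted p = 0.0127).

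By population, agria minus organ pipe for nimB5 was 0.52 in SQ, 0.48 in PP, 0.53 in OPNM and 0.15 in PO (SE 0.18 for each, adjusted p = 0.0574, 0.0862, 0.0527 and 0.747). Those 4 comparisons called 0.392%, 5.29%, 9.82% and 0.110% of transcripts. Within Baja California the difference was 0.50 (SE 0.125, adjusted p = 0.00496, 9.72% of transcripts called) and within the mainland 0.34 (SE 0.126, adjusted p = 0.0921, 3.52% called). These 2 differences were not shown to differ from each other, since the test of region by cactus gave an adjusted p of 0.767, nor were those of populations within a region (adjusted p = 0.721). The Baja California call was lost in 6 of 14 alternatives, among them with the array interquartile range in the fit (0.34, adjusted p = 0.02) and without the arrays numbered 1, 2 or 3 (0.44, 0.50 and 0.46, adjusted p = 0.0959, 0.0456 and 0.025).

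Temperature gave no call for nimB5. The means were 7.32 at 15 °C, 7.18 at 25 °C and 7.07 at 35 °C (n = 32, 32 and 33). At 35 °C the arrays ran from 5.61 through a median of 7.04 to 8.18 and at 15 °C from 6.30 through 7.27 to 8.47. The difference of 35 minus 15 °C was -0.25 (SE 0.11, 95% interval -0.47 to -0.03, adjusted p = 0.171), lower at 35 °C in 6 of 8 combinations, in a comparison that called 18.0% of transcripts. The steps were -0.14 for 25 minus 15 °C (adjusted p = 0.559, 6.07% called) and -0.11 for 35 minus 25 °C (adjusted p = 0.651, 12.5% called). By population, 35 minus 15 °C was -0.51 in SQ, -0.05 in PP, 0.15 in OPNM and -0.59 in PO, and none of the 4 passed.

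nimC3 varied over a narrower range, and again the SQ and PO flies lay above the PP flies. On agria, SQ arrays read 8.22, 8.30, 8.75 and 8.78 at 15 °C, 7.90, 7.97, 8.21 and 8.41 at 25 °C, and 8.21, 8.41, 8.61 and 8.76 at 35 °C. On organ pipe, they read 7.91, 7.97, 7.99 and 8.27 at 15 °C, 7.68, 7.94, 8.18 and 8.25 at 25 °C, and 7.85, 8.04, 8.12 and 8.77 at 35 °C. The agria and organ pipe arrays overlapped at each temperature.

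PP flies had nimC3 values of 7.48, 7.70, 7.88 and 8.57 at 15 °C, 7.93, 8.03, 8.31 and 8.42 at 25 °C, and 7.70, 8.14, 8.21, 8.22 and 8.28 at 35 °C on agria. On organ pipe they had 7.47, 7.57, 7.72 and 7.90 at 15 °C, 7.53, 7.79, 7.93 and 7.98 at 25 °C, and 7.21, 7.63, 8.10 and 8.29 at 35 °C. The arrays with the extreme nimB5 values were also extreme for nimC3: the agria array of 8.18 in nimB5 read 8.57, and the organ pipe array of 5.61 read 7.21, the lowest of all arrays.

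In OPNM flies reared on agria, nimC3 read 7.40, 7.96, 8.10 and 8.16 at 15 °C, 7.99, 8.16, 8.19 and 8.32 at 25 °C, and 7.99, 8.64, 8.76 and 8.77 at 35 °C. In those reared on organ pipe, it read 7.75, 7.75, 7.85 and 7.96 at 15 °C, 7.60, 7.71, 7.79 and 7.93 at 25 °C, and 7.90, 8.21, 8.30 and 8.49 at 35 °C. On both cacti 3 of 4 arrays at 35 °C lay above every array at 15 °C.

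In PO flies, nimC3 read 7.51, 7.89, 8.23 and 8.53 at 15 °C, 7.90, 8.28, 8.29 and 8.74 at 25 °C, and 8.27, 8.56, 8.60 and 8.68 at 35 °C on agria. On organ pipe it read 8.29, 8.33, 8.43 and 8.48 at 15 °C, 8.17, 8.39, 8.45 and 8.78 at 25 °C, and 7.82, 8.20, 8.24 and 8.27 at 35 °C. On organ pipe the arrays at 35 °C all lay below those at 15 °C.

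The equally weighted population means of nimC3 were 8.23 in SQ, 7.91 in PP, 8.07 in OPNM and 8.31 in PO. SQ arrays ran from 7.68 through a median of 8.21 to 8.78 and PP arrays from 7.21 through 7.93 to 8.57. SQ exceeded PP by 0.32 (SE 0.08), again given without a test, and did so in 5 of 6 combinations, the exception being agria at 25 °C. OPNM minus PO was -0.24 (SE 0.08, 95% interval -0.40 to -0.08, adjusted p = 0.0581), lower in OPNM in 4 of 6 combinations, and did not pass. By temperature it was -0.35 at 15 °C, -0.41 at 25 °C and 0.05 at 35 °C, and none of the 3 passed. Among the comparisons across the Gulf, nimC3 was lower in PP than in PO by 0.39 (adjusted p = 0.000302, 6 of 6, lost without the arrays numbered 1 at -0.36, adjusted p = 0.0187), and SQ minus OPNM (0.16), PP minus OPNM (-0.16) and SQ minus PO (-0.08) did not pass. Baja California minus the mainland was -0.12 (SE 0.06, adjusted p = 0.23), where the SE again reflects arrays and not populations of a region.

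For cactus, nimC3 arrays on agria ran from 7.40 through a median of 8.22 to 8.78 and on organ pipe from 7.21 through 7.97 to 8.78. The means were 8.23 on agria and 8.02 on organ pipe, and their difference of 0.21 (SE 0.06, 95% interval 0.10 to 0.32, higher on agria in 10 of 12 combinations) fell just short of the threshold, with an adjusted p of 0.0107. Without 1 of the 2 arrays that share a replicate number, it was 0.22 and passed (adjusted p = 0.00837). Without the arrays numbered 1 it fell to 0.16 (adjusted p = 0.229). With the array interquartile range in the fit it was 0.17 (adjusted p = 0.0233). Within Baja California it was 0.30 (SE 0.08, adjusted p = 0.00906) and within the mainland 0.12 (SE 0.08, adjusted p = 0.464), and the test of region by cactus did not pass (adjusted p = 0.706). The Baja California call was close to the threshold and was lost in 9 of 14 alternatives, among them with the array interquartile range in the fit (0.23, adjusted p = 0.0318) and without the arrays numbered 1, 3 or 5 (0.20, 0.29 and 0.30, adjusted p = 0.303, 0.0462 and 0.0117). By population, agria minus organ pipe was 0.30 in SQ, 0.30 in PP, 0.27 in OPNM and -0.03 in PO. In both genes the smallest cactus difference was thus that of PO, the population whose flies had the highest nimC3 mean on organ pipe, though the test of populations within a region by cactus gave an adjusted p of 0.592 for nimC3.

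The temperature means of nimC3 ran the other way from those of nimB5, at 8.03 at 15 °C, 8.10 at 25 °C and 8.26 at 35 °C. The difference of 35 minus 15 °C was 0.22 (SE 0.07, 95% interval 0.08 to 0.36, adjusted p = 0.034), higher at 35 °C in 6 of 8 combinations, and did not pass. By population it was 0.08 in SQ, 0.17 in PP, 0.52 in OPNM (adjusted p = 0.0104, 4.50% of transcripts called) and 0.12 in PO. The OPNM value was 0.47 (adjusted p = 0.0305) without 1 of the 2 arrays that share a number. In flies of the 2 mainland populations reared on agria, nimC3 was 0.56 higher at 35 °C than at 15 °C (means 8.54 and 7.97, SE 0.14, adjusted p = 0.00441, 4.69% of transcripts called), against 0.07 in mainland flies on organ pipe, 0.10 in Baja California flies on agria and 0.15 in those on organ pipe. That mainland call was not rerun with replicates left out or under the other alternatives. The test of whether the temperature differences varied with region and cactus together did not pass (limma, adjusted p = 1).

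**Figure D2:**
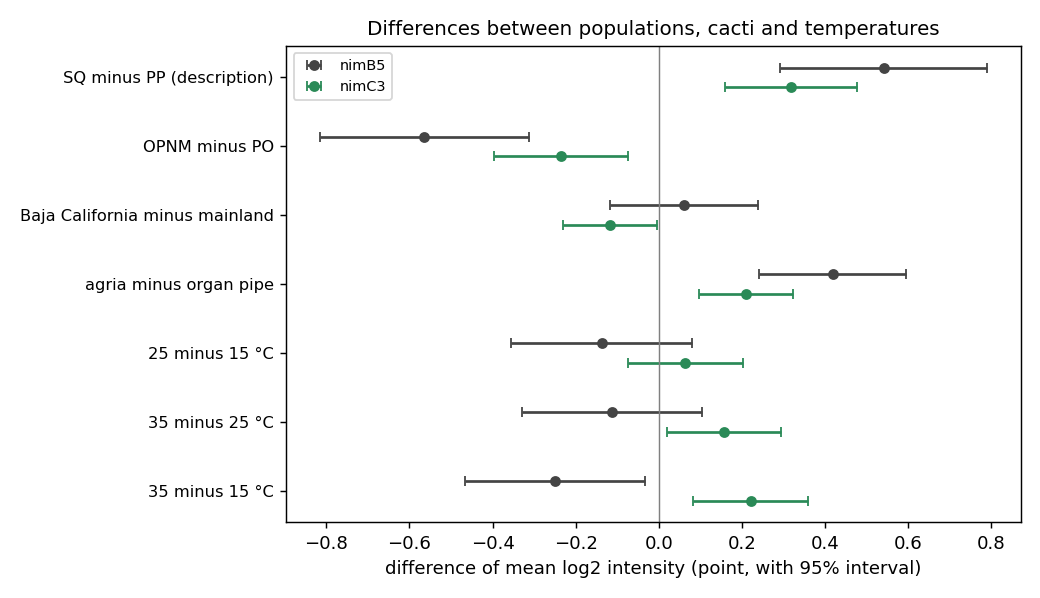
Differences of mean log2 intensity (horizontal axis) for nimB5 and nimC3, each point a difference with its 95% interval from the fit over 97 arrays; SQ minus PP is a description. OPNM minus PO and agria minus organ pipe passed for nimB5, at -0.56 and 0.42, and the 2 genes lie on opposite sides of 0 for 35 minus 15 °C, at -0.25 and 0.22.

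Because nimB5 and nimC3 were read on the same arrays, the difference between their log2 values within an array could be followed across the groups. Its size has no meaning between 2 sets of probes, and whether the 2 dim probe sets compress differences equally was not tested. The comparison was chosen after the temperature values had been seen, so it is a description with no test. The mean of nimC3 minus nimB5 was 0.71 at 15 °C, 0.91 at 25 °C and 1.18 at 35 °C, and 35 minus 15 °C was positive in 8 of 8 combinations of population and cactus. It was 0.72 in SQ, 0.23 in PP, 0.42 in OPNM and 0.67 in PO flies on agria, and 0.46, 0.21, 0.32 and 0.75 on organ pipe. Over all it was 0.47 (n = 65 arrays).

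The same difference moved with the other factors. Each of these mean differences, also that for temperature, equals the nimC3 difference less the nimB5 difference given above, so it restates those values. For cactus and for OPNM minus PO both genes moved the same way, nimB5 by more. Agria minus organ pipe was -0.21 and negative in 12 of 12 combinations (0.83 on agria and 1.04 on organ pipe). OPNM minus PO was 0.33 and positive in 6 of 6 (1.19 in OPNM and 0.86 in PO). For the single temperature steps it was 0.20 for 25 minus 15 °C (positive in 5 of 8 combinations) and 0.27 for 35 minus 25 °C (6 of 8).

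**Figure D3:**
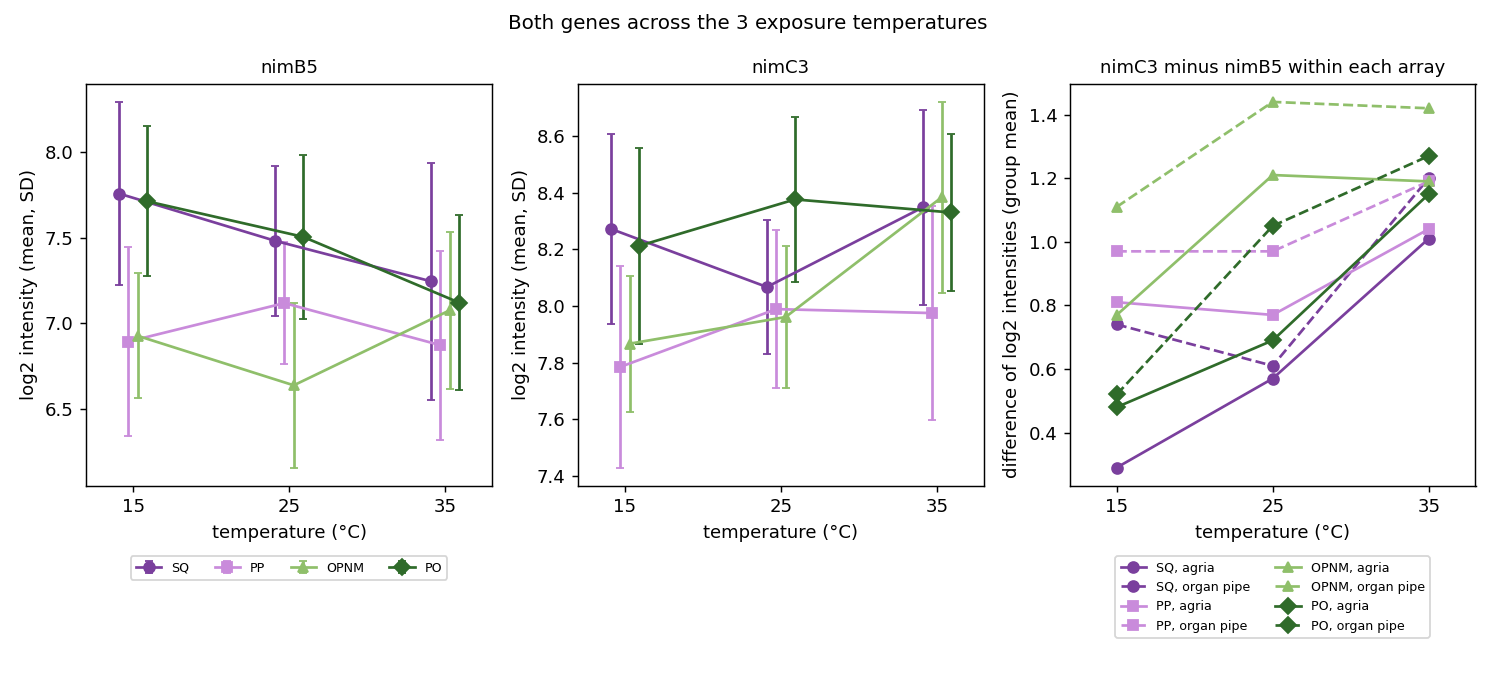
Left and middle, population means over arrays with SD of nimB5 and nimC3 log2 intensity at 15, 25 and 35 °C (8 arrays per point, 9 in PP at 35 °C); right, group means of the within-array difference of nimC3 minus nimB5 for each population on agria (solid) and organ pipe (dashed). Between 15 and 35 °C the mean difference widened by 0.47, and all 8 lines end higher at 35 °C than they start at 15 °C.

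None of the 7 interaction tests passed for either gene. Besides the tests already given, population within region by temperature gave an adjusted p of 0.235 for nimC3 (limma). Population within region by cactus called 0.0895% of transcripts, and the other 5 terms called 0%.

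Ordered by level, nimB5 was highest in SQ flies on agria at 15 °C (8.22 ± 0.27), followed by PO flies at 15 °C on organ pipe (7.86 ± 0.41) and PO flies at 25 °C on agria (7.61 ± 0.54). It was lowest in OPNM flies at 25 °C (6.32 ± 0.42) and PP flies at 35 °C (6.62 ± 0.71), both on organ pipe (SD, n = 4 each). nimC3 was highest in OPNM (8.54 ± 0.37) and PO flies (8.53 ± 0.18) on agria at 35 °C and lowest in PP flies on organ pipe at 15 °C (7.67 ± 0.19). Along the whole order of each gene, every step to the next group was smaller than the larger of the 2 SDs and the arrays of neighbours overlapped. With this many groups in order, small steps between neighbours are built in, so they do not show that the groups were alike. Of the 276 pairs of groups, 17 passed for nimB5 and 11 for nimC3, or 6.16% and 3.99%, beside 2.68% over all transcripts and pairs. SQ flies on agria at 15 °C were in 10 of the 17 pairs for nimB5, and 4 of the 17 and 2 of the 11 set an SQ group against a PP group. The study singled out both genes for SQ against PP, so counts that include SQ or PP groups are partly built in. The comparison with 2.68% is a description.

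The groups accounted for 54.1% of the variance of nimB5 and 52.6% of that of nimC3 over the 97 arrays. These shares are not adjusted for the number of groups, which alone takes up part of the variance, and the share over all transcripts was not computed. The pooled SD within a group was 0.45 for nimB5 and 0.28 for nimC3, and the group SDs ran from 0.11 to 0.79 and from 0.09 to 0.49.

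The remaining variation was shared by the genes. Deviations of the 97 arrays from their group means correlated at r = 0.78 between nimB5 and nimC3, and 75 arrays deviated in the same direction for both. The arrays share a scale, and deviations of each gene also went with those of the array interquartile range, at r = 0.60 for nimB5 and 0.42 for nimC3. Over all transcripts that correlation had a median of 0.12, and over the dimmest 25% of -0.55, where 3.72% of transcripts reached the value of nimB5 and 7.68% that of nimC3. With the interquartile range taken out, the deviations of the 2 genes still correlated at r = 0.72. The mean interquartile range was 3.10 in SQ and 3.01 in PP arrays, 3.04 in both OPNM and PO arrays, and 3.08 on agria and 3.02 on organ pipe. Its SD was 0.23 in SQ, 0.121 in PP, 0.085 in OPNM and 0.146 in PO arrays. In 12 outlying arrays the range lay more than 3 median absolute deviations from the median, and most of these were SQ arrays. The PP array that read 5.61 for nimB5 was also among them. With the interquartile range in the fit, agria minus organ pipe was 0.33 (adjusted p = 0.000851) and OPNM minus PO was -0.57 (adjusted p = 2.55e-05) for nimB5, and SQ minus PP was 0.39. For nimB5, SQ minus PP was 0.38 without the 12 outlying arrays, against 0.54 over all 97.

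**Figure D4:**
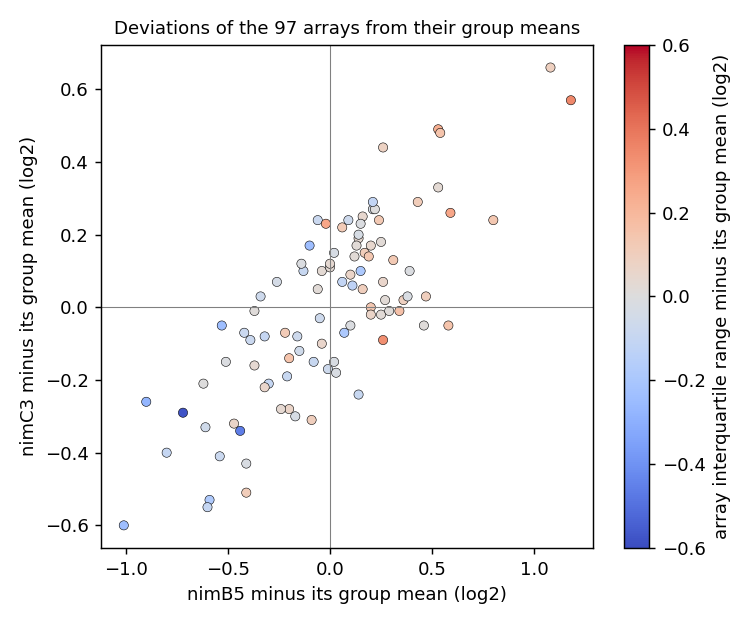
Deviation of each of the 97 arrays from its group mean for nimB5 (horizontal axis, log2) and nimC3 (vertical axis, log2), coloured by the deviation of the interquartile range of the array. The points run along a rising line (r = 0.78), and 75 of the 97 lie in the quadrants where both genes deviate the same way.

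The group means of nimB5 and nimC3 correlated at r = 0.71 over the 24 groups, which placed nimC3 at rank 399 among all transcripts by likeness to nimB5, and nimB5 at rank 132 by likeness to nimC3. The transcript most like nimB5 was that of DNaseII (GI23709, FBtr0174434), an acid DNase of lysosomes, at r = 0.92 over the 24 group means and 0.81 over the deviations within groups. DNaseII differed by 0.50 for SQ minus PP, -0.49 for OPNM minus PO and 0.42 for agria minus organ pipe, close to the nimB5 values of 0.54, -0.56 and 0.42. The next 4 were FBtr0171281, FBtr0171882, FBtr0167461 and FBtr0167268, with r from 0.91 to 0.88, which no table used here names. Over these 5 transcripts, 35 minus 15 °C ran from -0.32 to -0.18, against -0.25 in nimB5.

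The 5 transcripts most like nimC3, all unnamed here, were FBtr0166585, FBtr0165592, FBtr0162549, FBtr0163391 and FBtr0161934, with r from 0.88 to 0.85 over the group means. Their differences for 35 minus 15 °C ran from 0.01, in FBtr0162549, to 0.56, and for agria minus organ pipe from 0.16 to 0.38. The transcripts were picked over the same 24 group means, so a like pattern is built in, and the groups share populations, cacti and temperatures.

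Other immune genes could be followed where a name was paired with a transcript, which held for 3 of 21 Toll, 2 of 19 Imd and 1 of 10 melanization genes and, in the Nimrod family, for 2 of 12 genes, nimB5 and nimC3 themselves. The names come from gene lists that the study drew up on these same arrays, so these 6 are not independent evidence. The Toll pathway answers Gram-positive bacteria and fungi and the Imd pathway Gram-negative bacteria. On agria 3 of the 6 were higher and none lower, with a median difference of 0.29, beside -0.03 over all transcripts, of which 17.0% were called, most of them higher on agria. They were Tehao, a receptor of the Toll family (8.63 on agria and 8.24 on organ pipe, difference 0.39, adjusted p = 3.42e-09), PGRP-SA, a secreted sensor of bacterial peptidoglycan upstream of Toll (10.14 and 9.84, difference 0.30, adjusted p = 0.0022), and PGRP-LA, a peptidoglycan recognition protein of the Imd list (9.12 and 8.88, difference 0.24, adjusted p = 0.00557). The Toll receptor gene Tl itself differed by -0.05 (adjusted p = 0.434).

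Between the mainland populations, 2 of the 6 were lower in OPNM than in PO and none higher, with a median of -0.32, beside 0.03 over all transcripts, of which 3.90% were called. PGRP-SA averaged 9.49 in OPNM and 10.20 in PO flies (difference -0.71, adjusted p = 8.04e-08), and PGRP-LF, which restrains Imd signalling in D. melanogaster, 8.82 in OPNM and 9.61 in PO flies (difference -0.79, adjusted p = 6.89e-07). For 35 minus 15 °C, 2 of the 6 were higher and 1 lower, where 18.0% of all transcripts were called, 947 higher and 1672 lower. PGRP-SA averaged 10.35 at 35 °C and 9.61 at 15 °C (difference 0.74, adjusted p = 1.57e-10), Tehao 8.65 and 8.23 (0.43, adjusted p = 8.71e-08), and PGRP-LF 9.03 and 9.44 (-0.41, adjusted p = 0.00494).

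**Figure D5:**
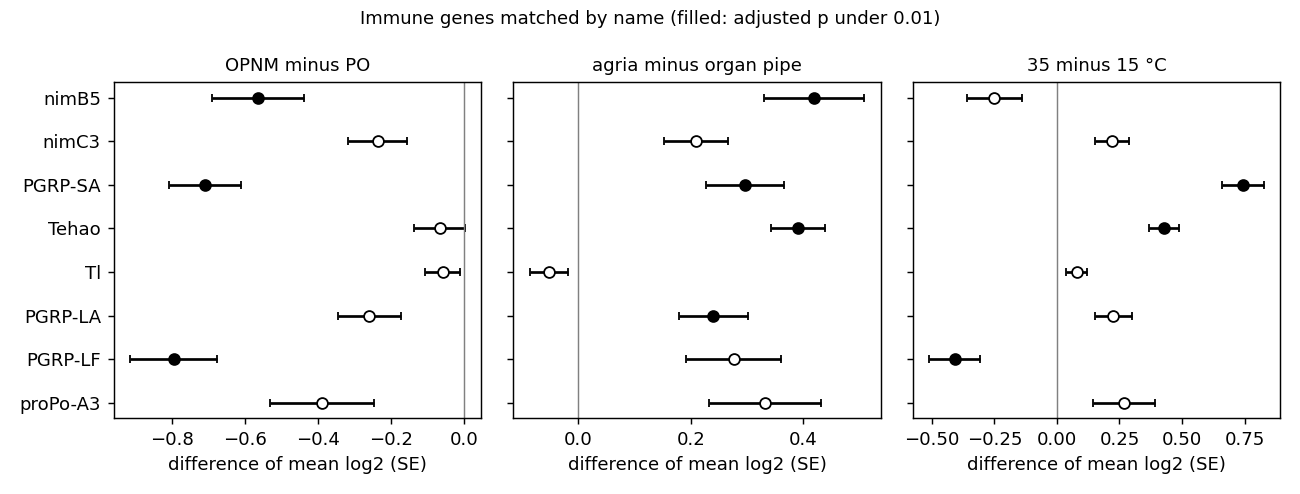
Differences of mean log2 intensity with SE (horizontal axes) of nimB5, nimC3 and the 6 other immune genes matched by name, for OPNM minus PO, agria minus organ pipe and 35 minus 15 °C; filled points passed at an adjusted p under 0.01. On agria nimB5, PGRP-SA, Tehao and PGRP-LA were higher, and in OPNM nimB5, PGRP-SA and PGRP-LF were lower.

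Whole females also hold ovary and muscle. Among 4 flight muscle markers, 3 passed for cactus and 1 in each direction for OPNM minus PO, but none for 35 minus 15 °C. The 2 matched follicle cell markers passed for 35 minus 15 °C, and not for cactus or for OPNM minus PO. Of the 4 flight muscle markers, 3 were higher on agria and none lower, with fln 0.61, Act88F 0.46 and Mlc1 0.12 higher and TpnC41C at 0.12 without passing. The cactus comparison called 17.0% of all transcripts, most of them higher on agria. Marker names came from the study's gene lists on these same arrays, so the markers are not independent evidence. The log2 of their summed level ran from 13.68 through a median of 14.51 to 15.05 on agria and from 13.42 through 14.28 to 14.78 on organ pipe. In OPNM against PO flies, Act88F was lower by 0.90 and TpnC41C higher by 0.25. The markers fln and Mlc1 did not pass, in a comparison that called 3.90% of all transcripts. The 2 matched follicle cell markers of 11 listed, Vm26Aa and Vm26Ab, were higher at 35 °C than at 15 °C by 1.59 and 1.02. That comparison called 18.0% of all transcripts. Their summed log2 level ran from 12.73 to 14.78 at 35 °C, from 14.08 to 14.84 at 25 °C and from 10.95 to 14.34 at 15 °C. They also passed for 25 minus 15 °C (2.177 and 1.625, 6.07% of transcripts called) and for 35 minus 25 °C (-0.582 and -0.605, 12.5% called). Both passed too for Baja California minus the mainland (0.708 and 0.379, 9.68% called). The part of muscle or ovary in the nimB5 and nimC3 differences was not tested.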

How the data were processed

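Total RNA of groups of females was made into double-stranded cDNA, labelled with Cy3 and hybridised to 97 1-colour NimbleGen arrays with 9 probes for each of 14528 transcripts, designed on D. mojavensis genome release 1.3. The authors quantile-normalized the intensities with NimbleScan v2.5 and summarised them by RMA, and the deposited values are log2 intensities per transcript. They were used as deposited, with no filter. Probe intensities and background were not used here, so the number of arrays limits the precision. Groups were taken from the sample titles. The labels call the arrays replicates without saying whether cultures differed, so p-values measure the spread between these arrays. limma 3.58.1 in R 4.3.3 fitted 1 mean per group (73 residual degrees of freedom, eBayes), and all 483 pairwise comparisons of factor levels and their combinations were adjusted together over all transcripts by the Benjamini-Hochberg method, with interactions adjusted within each term. Means of factors weight groups equally. The code was tested on simulated data. Named genes were nimB5 and nimC3, the 5 transcripts most like each, and, from the immune lists, the members with the largest called differences for cactus and for 35 minus 15 °C, while PGRP-LA, PGRP-LF and Tl were named after their values were seen. Symbols were paired with 557 transcripts through the study's gene lists, whose comparison columns were not used. The members and lists were chosen with earlier results of these data known. The alternatives covered scaling, moderation, adjustment, a dim filter, the array interquartile range, a replicate block, the arrays fitted and left-out replicates. The replicate numbers do not pair the samples.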

Additional observations from a re-analysis of the deposited data

Results flagged for a closer look

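A single array lay far from the others of its group in 4 of the 48 sets tested (2 genes in 24 groups), where chance flags about 1 in 20. nimB5 read 6.72 in OPNM flies on agria at 15 °C, against 7.24 to 7.29 on the other 3 arrays. nimB5 read 6.81 in PO flies on agria at 25 °C, against 7.86 to 7.90 on the others. nimC3 read 7.70 in PP flies on agria at 35 °C, against 8.14 to 8.28 on the other 4. nimC3 read 7.82 in PO flies on organ pipe at 35 °C, against 8.20 to 8.27 on the others.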

How the results depend on the processing

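Over 29 differences, each under 7, 13 or 14 alternatives, 353 values kept their direction and, where tested, their side of the threshold, 26 lost a call, 11 gained one and 5 changed sign, and the cause was not tested. SQ minus PP and the within-array difference carry no test. For nimC3, 35 minus 15 °C passed with arrays centred on their median (0.25, adjusted p = 0.00706), adjustment within each comparison (0.22), the array interquartile range as a covariate (0.25) and without arrays of outlying interquartile range (0.28), the last chosen after seeing the data. That difference did not pass in the other 10 alternatives, and was 0.17 (adjusted p = 0.208) without the arrays numbered 4. nimC3 on agria minus organ pipe passed with quantile normalization applied again (0.25), adjustment within the comparison (0.21) and without the array titled with a leading number (0.22). It did not pass in the other 10 alternatives, and was 0.16 (adjusted p = 0.229) without the arrays numbered 1. Within Baja California that nimC3 difference lost its call with median centring (0.25), no moderation (0.30), the interquartile range (0.23), only the arrays compared (0.30) and without outlying arrays (0.31), and ran from 0.20 to 0.36 with replicates left out, with the call lost without numbers 1, 3 and 5. The replicate numbers share no deviations (median r -0.002, against 0.012 for other numbers), and a replicate block changed no call except this one (0.30, adjusted p = 0.0123). The nimB5 difference within Baja California lost its call with the interquartile range (0.34), only the arrays compared (0.50) and without outlying arrays (0.46), and ran from 0.44 to 0.59 with replicates left out, with the call lost without numbers 1, 2 and 3. With replicates left out, nimB5 ran from -0.64 to -0.45 for OPNM minus PO and from 0.39 to 0.44 for agria minus organ pipe. Signs changed only in differences that had not passed: nimB5 SQ minus PO (-0.04 with the interquartile range and without outlying arrays, -0.02 to 0.13 with replicates left out), nimB5 PP minus OPNM (-0.04 to 0.19) and nimC3 25 minus 15 °C (-0.02 to 0.11). Leaving out the dimmest 25% of transcripts gave no value, since both genes are among them. How far low signal limits their differences was not tested.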
